A study of Mus musculus with 2 samples.

Results

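Toll-like receptors and their partners were followed in B cells sorted from the mouse colonic lamina propria, the connective tissue beneath the gut epithelium. The set holds 9 genes, named by symbol and not by their values, out of 31053 genes in the count matrices: Tlr1, Tlr4, Tlr6, Tlr7, Tlr9, Cd180, Ly86, Myd88 and Unc93b1. All 9 had at least 1 unique molecular identifier (UMI, a tag that stands for 1 captured transcript) in both libraries. The day 0 library came from untreated female C57BL/6J mice. The day 14 library came from female C57BL/6J mice given 2% dextran sulfate sodium (DSS), a polysaccharide that injures the colonic epithelium, for 7 days and then left to recover for 7 days. Each group is 1 library. The treatment tag reads DSS for day 0 as well, and that its mice were untreated follows from the protocols and the series design. No source used here gives the number and age of the mice, whether they were pooled, or the markers of the sort.

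Toll-like receptors are sensors of microbial molecules that B cells carry at the surface or in endosomes. TLR1 and TLR6 pair with TLR2 to bind bacterial lipopeptides, TLR4 with its partner MD-2 binds lipopolysaccharide, and TLR7 and TLR9 bind RNA and DNA inside endosomes, where UNC93B1 brings them. CD180, a TLR4-like surface protein of B cells, needs MD-1, the product of Ly86, to reach the surface, and MYD88 is the adaptor that most of these receptors signal through.

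The cells kept by the authors numbered 3290 of 3376 barcodes at day 0, with 8690102 UMIs, and 4692 of 4780 at day 14, with 12317052 UMIs. Median UMIs per cell were 2278.5 and 2241.5, and 17 barcodes occurred in both libraries. Of the kept cells, 2805 at day 0 and 4031 at day 14 had at least 5 UMIs of the B cell markers Cd79a, Cd79b, Ms4a1, Cd22 and Pax5. T cell UMIs reached 3 or more in 0 and 1 kept cells. Among the left-out barcodes, 56 and 42 had T cell markers. These counts thus describe the authors' list of cells and not the purity of the sort. At least 3 myeloid or neutrophil UMIs were found in 1 cell at day 0 and 5 cells at day 14. These cells held no UMI of any Toll-like receptor or of Myd88, but 7 UMIs of Ly86, 1 of Cd180 and 1 of Unc93b1 at day 0, and 3 of Ly86 and 3 of Unc93b1 at day 14. Levels are counts per 1000000 UMIs (CPM), immunoglobulin genes and the genes of the mitochondrial genome left out of the total. With 1 library per group there is no replicate check and no test. The 95% intervals in parentheses cover counting error only. A gene was measured at 50 UMIs or more over the groups compared, and it counted as higher or lower from 1.5-fold on, which describes size only.

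Cells were placed by their heavy chain constant transcripts. IgD-positive cells, which carry Ighd as naive follicular B cells do, numbered 1953 (59.4%) at day 0 and 2879 (61.4%) at day 14. Cells with IgM and no IgD UMI numbered 610 and 781, IgG cells 27 and 23, and IgA cells 65 and 39. A plasma range, cut at 8 UMIs of 7 secretory-cell genes, held 26 and 30 cells with median UMIs of 18384 and 15995, and 2 and 1 cells lay next to that limit. Igha held most of the heavy chain constant UMIs in 24 and 23 of them. The remaining 609 and 940 cells had too few constant UMIs for a state.

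Promoters are shown for the receptor pair Cd180 and Ly86, which were both lower in the plasma range on both days, and for Tlr1, the member that differed between isotype states. Each is the 250 bases before the RefSeq start on GRCm38.p6, 5′ to 3′ on the strand of the gene, and capitals mark a PU box (GAGGAA) or an E-box (CAGNTG). An octamer (ATGCAAAT) was also searched, all on both strands, and no matches overlapped. They lie at chr13:102693297-102693546 on the plus strand (Cd180), chr13:37345095-37345344 on the plus strand (Ly86) and chr5:64933559-64933808 on the minus strand (Tlr1). The Ly86 window runs past 37345208, the start in the gene positions given below, so much of it lies inside that gene span. The Tlr1 window reaches only just inside its span, which ends at 64933563. Cd180 and Tlr1 had 2 promoter entries each, and the first was used.
Cd180: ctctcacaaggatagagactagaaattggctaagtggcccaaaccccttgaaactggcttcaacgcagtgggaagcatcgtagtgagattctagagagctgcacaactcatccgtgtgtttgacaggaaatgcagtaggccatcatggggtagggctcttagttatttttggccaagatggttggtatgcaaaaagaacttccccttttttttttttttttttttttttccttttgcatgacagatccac
Ly86: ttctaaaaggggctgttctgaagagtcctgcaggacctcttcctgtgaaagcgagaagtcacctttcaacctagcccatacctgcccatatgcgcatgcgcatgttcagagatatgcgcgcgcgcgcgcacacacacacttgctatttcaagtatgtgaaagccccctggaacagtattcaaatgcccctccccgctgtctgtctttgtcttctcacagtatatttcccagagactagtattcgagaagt
Tlr1: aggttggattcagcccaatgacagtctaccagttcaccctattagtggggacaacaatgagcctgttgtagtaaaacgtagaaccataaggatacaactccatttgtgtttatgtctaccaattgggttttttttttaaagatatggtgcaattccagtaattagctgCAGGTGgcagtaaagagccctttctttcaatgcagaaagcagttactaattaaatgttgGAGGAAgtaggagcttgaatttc
None of the 3 motifs was found in the Cd180 and Ly86 windows. The Tlr1 window held 1 PU box, 23 bases before the start, and 1 E-box, 82 bases before it. Of 27025 promoters, 23.1% held the PU box, 1.61% the octamer and 44.5% the E-box, so these matches are a description and not sites of binding. The promoter table matched 6 of the 9 members.

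By day, no measured member passed 1.5-fold. Of the 6 measured members, 0 were higher and 0 lower at day 14. Over 8924 measured genes, 1.31% were higher and 4.94% lower, with a median log2 ratio of -0.09, so 0 of 6 is near that background. In IgD-positive cells the same 6 members were measured and again 0 passed, beside 1.88% of genes higher and 4.59% lower. Tlr4, Tlr6 and Tlr9 had too few UMIs to be measured. Other scalings moved the count over all genes, from 117 higher and 441 lower to 186 and 266 with TMM factors and 182 and 295 with median-of-ratios factors. TMM placed the median log2 ratio at 0.01. The Unc93b1 ratio of 1.11 became 1.19 with TMM and 1.18 with median-of-ratios, and the Ly86 ratio of 1.02 became 1.10 and 1.09. These 4 values lay outside the main counting intervals. No member passed 1.5-fold under either scaling.

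**Figure D1:**
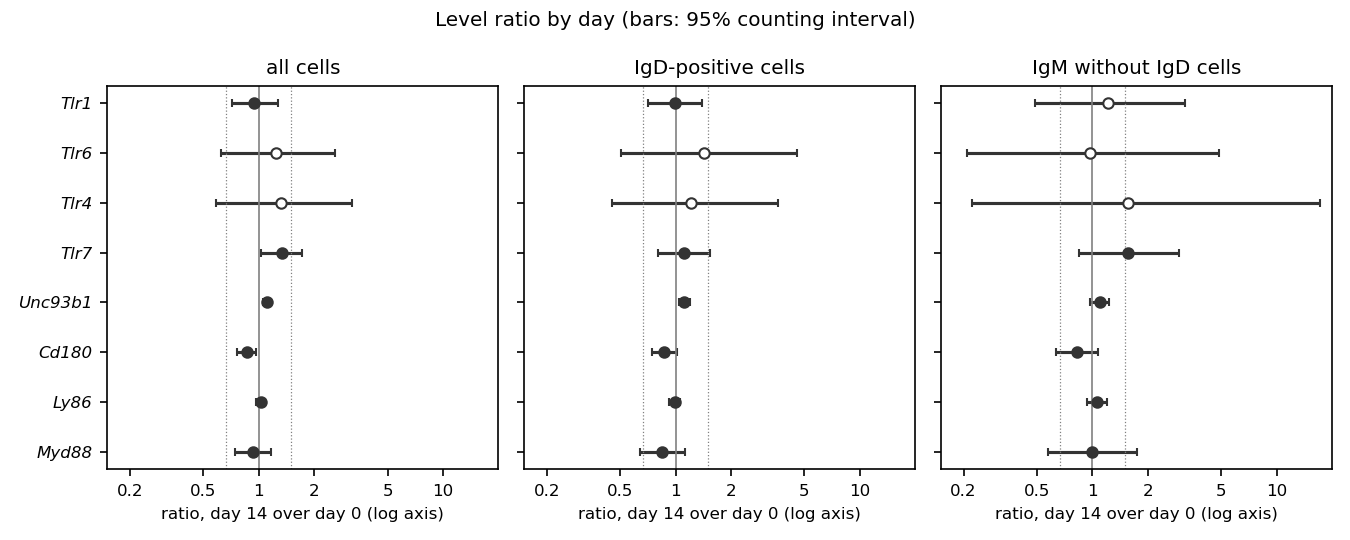
Ratio of the level at day 14 to that at day 0 on a log axis for 8 members in all cells, IgD-positive cells and cells with IgM and no IgD; bars are 95% counting intervals, filled points are measured members, open points are below the UMI minimum and dotted lines mark 1.5-fold. In all cells and in IgD-positive cells every measured member lies inside the dotted lines, and in cells with IgM and no IgD only Tlr7 of the measured members, at 1.55, lies outside them.

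Among the surface receptors, Tlr1 (mm10 chr5:64924679-64933563, minus strand) had 87 UMIs at day 0 and 118 at day 14, or 10.8 and 10.2 CPM. Its ratio was 0.946 (0.711 to 1.26). Tlr6, its neighbour on the same strand at chr5:64952031-64960097, had 14 and 25 UMIs, 1.73 and 2.16 CPM. Reads of these related genes could be confused in part: 13.6% of the 50-base words of Tlr1 transcripts occur in Tlr6, but none in their last 500 bases, where a 3′ library reads. Tlr4 (chr4:66827584-66930284, plus strand) had 10 and 19 UMIs, 1.24 and 1.64 CPM. Its pairing protein MD-2, the product of Ly96, was better covered, at 126 and 143 UMIs. Of the other surface and endosomal receptors not in the set, Tlr2 had 6 and 8 UMIs, Tlr3 1 and 8, and Tlr12 3 and 1, while Tlr5, Tlr8, Tlr11 and Tlr13 had none, which allows up to 0.371 CPM at day 0 and 0.259 CPM at day 14. Tlr2, with which both TLR1 and TLR6 pair, was thus counted in 6 cells at day 0 and 7 at day 14.

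The endosomal receptor Tlr7 (chrX:167304929-167330558, minus strand) had 95 UMIs at day 0 and 181 at day 14. Its level was 11.7 CPM (9.50 to 14.4) and 15.6 CPM (13.4 to 18.1), a ratio of 1.33 (1.03 to 1.72) that stayed under 1.5-fold. In cells with under 3 UMIs of the interferon-associated genes described below the ratio was 1.21 (0.929 to 1.59). With no UMI of those genes it was 1.05 (0.771 to 1.43). In IgD-positive cells Tlr7 was 13.5 and 14.9 CPM, a ratio of 1.11 (0.804 to 1.53). In cells with IgM and no IgD it was 11.02 and 17.1 CPM, a ratio of 1.55 (0.845 to 2.97) from 17 and 34 UMIs, past 1.5-fold with an interval that includes 1. In that state 2.21% of 5391 genes were higher and 6.51% lower. Without the interferon range described below the ratio was 1.56, with too few UMIs to be measured, and without cells of more than 2 times the median UMIs it was 1.41. Tlr9 (chr9:106222598-106226883, plus strand), the receptor of unmethylated DNA, had 1 UMI at day 0 and 4 at day 14, so little can be said of it at this depth.

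Unc93b1 (chr19:3935186-3949340, plus strand), the chaperone of the endosomal receptors, had the most UMIs of the set. It had 2297 UMIs at day 0 and 3651 at day 14, 284 CPM (272 to 296) and 315 CPM (305 to 325), a ratio of 1.11 (1.05 to 1.17). Ratios of 1.11 and 1.10 were found in the larger states: 292 and 326 CPM in IgD-positive cells and 302 and 331 CPM in cells with IgM and no IgD. In the 27 and 23 IgG cells Unc93b1 was 299 and 489 CPM, a ratio of 1.63 (1.03 to 2.62) from 33 and 49 UMIs, where 7.47% of 482 genes were higher and 10.8% lower. With plasma range cells kept in their isotype state that ratio was 1.30. In IgA cells it was 228 and 330 CPM, a ratio of 1.45 (0.954 to 2.18), beside 5.23% of genes higher and 11% lower. In the plasma range it was 222 and 135 CPM, a ratio of 0.609 from 44 and 37 UMIs, where 14.6% of 1195 genes were lower and 22.6% higher. The smallest states had the widest intervals.

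Cd180 (chr13:102693558-102739629, plus strand) had 509 UMIs at day 0 and 628 at day 14, 62.9 and 54.2 CPM, a ratio of 0.861 (0.765 to 0.970). Ly86 (chr13:37345208-37419036, plus strand), its secreted partner, had 2213 and 3241 UMIs, 273 and 279 CPM, a ratio of 1.02 (0.968 to 1.08). With each cell thinned to 1000 UMIs the Cd180 ratio was 0.986. Transcripts of the antisense-lying gene Mast4 overlap Cd180 and had 766 and 919 UMIs. At the level of single cells, 215 of 3290 cells at day 0 held both Cd180 and Ly86 UMIs and 215 held Cd180 without Ly86. At day 14 both were found together in 273 cells and Cd180 alone in 273.

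Myd88 (chr9:119335934-119341411, minus strand) had 145 and 193 UMIs, 17.9 CPM (15.1 to 21.1) at day 0 and 16.6 CPM (14.4 to 19.2) at day 14, a ratio of 0.929 (0.745 to 1.16). In cells with too few constant transcripts for a state it was 12.0 and 19.2 CPM, a ratio of 1.61 (0.858 to 3.16) from 15 and 36 UMIs, where 3.21% of genes were higher and 4.77% lower. Neutrophil UMIs lay mostly in these cells at day 14 (391 of 399), and the cells with at least 3 myeloid or neutrophil UMIs held no Myd88. Myd88 overlaps Slc22a14 on the same strand, which had 0 UMIs in both libraries, and Acaa1a on the other.

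**Figure D2:**
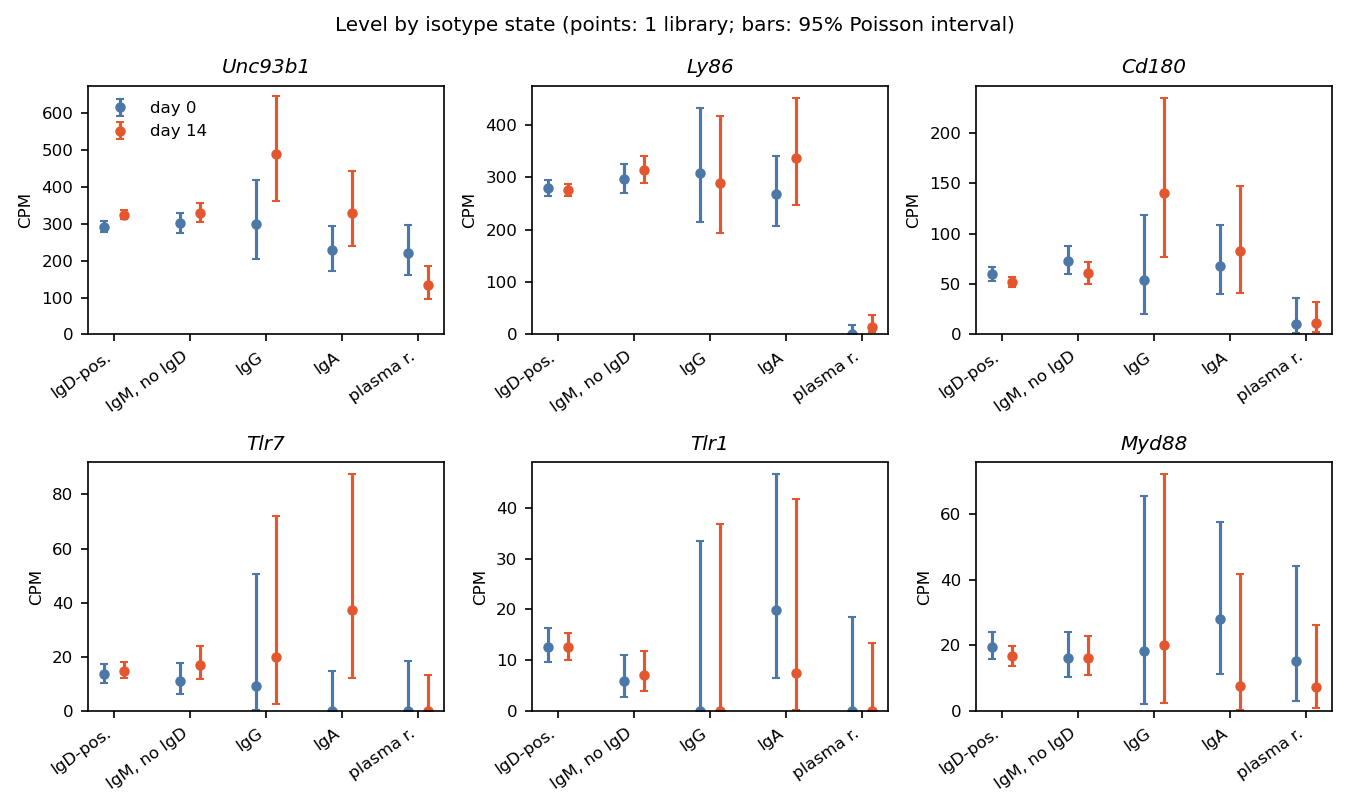
Level of 6 members in CPM, on axes from 0, in IgD-positive cells, cells with IgM and no IgD, IgG cells, IgA cells and the plasma range; blue is day 0, red is day 14, points are 1 library and bars 95% Poisson intervals. Ly86 and Cd180 sit near 0 in the plasma range on both days, while Unc93b1 does not, and the intervals widen in the IgG, IgA and plasma groups, which hold between 23 and 65 cells.

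By isotype state, Tlr1 was the only member past 1.5-fold on both days. Cells with IgM and no IgD were set against IgD-positive cells within each library, and a difference counted where it passed 1.5-fold in the same direction on both days. Of 6 measured members, 1 was lower and 0 higher, where 0.19% of 6841 genes were lower and 0.409% higher. Among genes with 50 to 150 UMIs in these states, the range in which Tlr1 lies, the lower share was 0.565%. Tlr1 was the member, at 5.83 CPM from 9 UMIs against 12.7 CPM from 60 UMIs at day 0, and 7.05 CPM from 14 UMIs against 12.6 CPM from 91 UMIs at day 14. These are ratios of 0.460 (0.201 to 0.934) and 0.560 (0.295 to 0.989), so both intervals end just below 1.

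The Tlr1 difference rests on 9 and 14 UMIs in the cells without IgD. Without the cells of the interferon range the day 14 ratio was 0.669, just inside 1.5-fold, and with 2 UMIs of Ighd asked for, or after thinning, Tlr1 had too few UMIs to be measured (ratios 0.506 and 0.528, or 0.357 and 0.389). Genes of other B cell states moved with this state. Of 5 germinal center genes, 4 were above the IgD-positive level on both days, with summed levels of 160 against 34.6 CPM at day 0 and 66.5 against 21.9 CPM at day 14. Of 7 B-1 and memory genes, 7 were above it at day 0 and 6 at day 14. Their part in the Tlr1 difference was not tested.

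The other measured members stayed within 1.5-fold in these cells. Cd180 was 73.2 against 59.7 CPM at day 0 and 60.4 against 51.9 CPM at day 14, ratios of 1.23 (0.977 to 1.53) and 1.17 (0.941 to 1.44). Ly86 gave 1.06 and 1.14, Unc93b1 1.03 and 1.02, Myd88 0.825 and 0.971, and Tlr7 0.815 and 1.15. In cells with no state all 6 were measured against IgD-positive cells and 0 passed on both days, beside 0.238% of genes higher and 0.729% lower. Tlr1 in them gave 0.819 (0.412 to 1.51) at day 0 and 0.509 (0.254 to 0.934) at day 14, past 1.5-fold at day 14 only.

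In the switched states only Ly86 and Unc93b1 were measured, and neither passed 1.5-fold on both days. In IgG cells the backgrounds were 4.11% higher and 3.38% lower, and in IgA cells 3.41% higher and 4.98% lower. Ly86 in IgG cells was 308 against 279 CPM at day 0 and 290 against 275 CPM at day 14, and in IgA cells 268 and 337 CPM, ratios to IgD-positive cells of 0.960 (0.740 to 1.23) and 1.22 (0.890 to 1.64). With plasma range cells kept in their isotype state, the IgA ratios of Ly86 were 0.550 and 0.4998, lower on both days, and those of Unc93b1 were 0.775 and 0.647. Unc93b1 in IgG cells was at 1.02 (0.702 to 1.44) at day 0 and just past 1.5-fold at day 14, at 1.503 (1.11 to 1.99), and 1.19 with plasma range cells kept. Unc93b1 in IgA cells was 228 CPM at day 0 and 330 CPM at day 14, ratios to IgD-positive cells of 0.779 (0.587 to 1.02) and 1.01 (0.734 to 1.36).

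With 10 UMIs of Igha asked for in place of 3, 12 and 6 IgA cells remained and Ly86 gave 0.604 (0.329 to 1.02) and 0.539 (0.175 to 1.26), too few UMIs to be measured. Jchain, a gene of antibody-secreting cells, stood at 1143 CPM in these 12 cells of day 0 against 59.2 CPM in IgD-positive cells. The B cell marker Ms4a1 was higher in them too, 1083 against 740 CPM, a ratio of 1.46 (1.17 to 1.80). In the plasma range of day 0 Ms4a1 was 50.4 CPM. At least 3 UMIs of secretory-cell genes were found in 2 of the 12 cells, and in 1 of the 6 at day 14. The part of secreting cells was not tested. Cd180 in the IgG cells of day 14 was 140 CPM from 14 UMIs in 12 of 23 cells, against 54.4 CPM from 6 UMIs in 4 of 27 cells at day 0, both below the measuring limit. Germinal center genes were above the IgD-positive level in IgG cells, 4 of 5 on both days. Their sum was 952 CPM at day 0 and 399 CPM at day 14, the opposite direction to Cd180. Of 7 B-1 and memory genes, 5 and 6 were above it too, with sums of 390 and 389 CPM. The part of either list was not tested. Tlr7 in IgA cells was 0 of 65 cells at day 0, which allows a share of up to 4.62%, and 4 of 39 cells at day 14.

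The receptor pair was lower in the plasma range than in IgD-positive cells, and the chaperone was found there in most cells only before thinning. Ly86, measured in this range, had 0 UMIs in 26 cells at day 0, against 279 CPM in IgD-positive cells, a ratio of 0 (0 to 0.0667). A floor of 3 counts in place of 0 would make it 18.5-fold lower. At day 14 it had 4 UMIs in 3 of 30 cells, a ratio of 0.0529 (0.0144 to 0.136). Cd180 had 2 UMIs at day 0 and 3, all in 1 cell, at day 14, ratios of 0.169 (0.0203 to 0.615) and 0.211 (0.0433 to 0.621). Unc93b1 was found in 20 of 26 and 20 of 30 cells, at ratios of 0.758 (0.548 to 1.02) and 0.414 (0.291 to 0.573). So 2 of 3 measured members were lower, beside 33% of 2319 genes lower and 15.5% higher, and the median log2 ratio of all genes was -0.42 and -0.29. Jchain alone made 157073 CPM at day 0 and 77813 CPM at day 14 there. With total UMIs as the scale the Unc93b1 ratios were 0.350 and 0.246, and 3 members were lower. None of the 5 Toll-like receptors had a UMI in the plasma range at day 0, and 1 cell had a Tlr4 UMI at day 14.

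**Figure D3:**
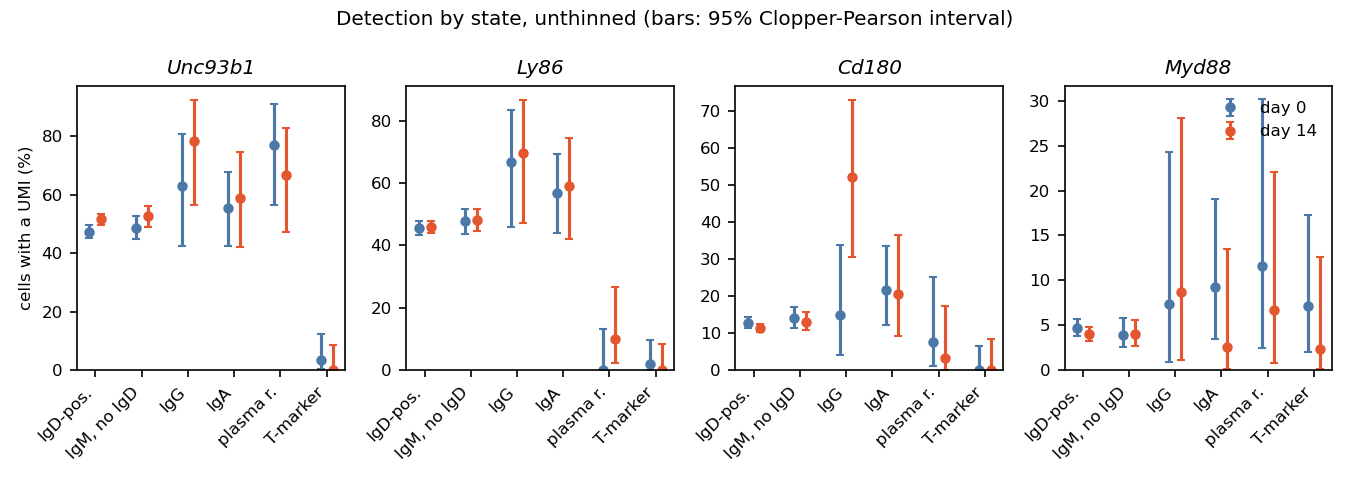
Share of cells with at least 1 UMI of Unc93b1, Ly86, Cd180 and Myd88, in percent and not thinned, by state and in left-out barcodes with T cell markers; blue is day 0, red is day 14, and bars are 95% Clopper-Pearson intervals. Unc93b1 and Ly86 stand well above the T-marker barcodes in the 4 isotype states, and Myd88 does not. Cd180 also stands above them, but its interval in IgG cells at day 0 (4.19 to 33.7%) overlaps that of the T-marker barcodes (0 to 6.38%).

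Detection was read against barcodes with T cell markers that the authors left out, 56 at day 0 with a median of 3211 UMIs and 42 at day 14 with 2910. Ly86 was found in 44.8% of kept cells at day 0 and 45.7% at day 14, and in 1 of 56 and 0 of 42 of the T-marker barcodes. Unc93b1 was found in 46.5% and 49.9%, against 2 of 56 and 0 of 42. Cd180 was found in 13.1% and 11.6%, against 0 and 0. Without thinning, these 3 genes thus lay above the background on both days. Tlr7 was found in 2.77% and 3.54% of cells and in none of the T-marker barcodes, which allows shares of up to 5.36% and 7.14%, so the background cannot be set apart from it at this depth. Tlr1 (2.61% and 2.45%) and Myd88 (4.26% and 3.94%) were inside the intervals of the shares in those barcodes, 1.79% and 2.38% for Tlr1 and 7.14% and 2.38% for Myd88, which T cells are known to express. Thinned to 1000 UMIs per cell, the shares were 23.0% and 22.6% for Ly86, 23.0% and 25.7% for Unc93b1 and 5.44% and 5.34% for Cd180, leaving out 34 and 63 shallower cells. The thinned T-marker barcodes held Cd180 in 0 of 53 and 0 of 41, with intervals up to 6.72% and 8.60%. Thinned Cd180 thus cannot be set apart from the background. Any of the 5 Toll-like receptors was found in 196 of 3290 cells (5.96%) at day 0 and 315 of 4692 (6.71%) at day 14, and at least 2 of them in 6 and 13 cells.

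A group of day 14 cells differed in 4 members. It was cut at 3 UMIs of 11 interferon-associated genes (among them Gbp2, Zbp1 and Serpina3g), a list chosen from earlier results of these data, and held 361 cells with a median of 2536 UMIs, set against 3265 cells with no such UMI and a median of 2152. Of the cells, 128 lay at the limit with 3 UMIs and 261 just under it with 2. Tlr7 was 31.0 CPM from 33 UMIs in these cells and 12.7 CPM from 94 UMIs in the others, a ratio of 2.45 (1.59 to 3.67). Tlr1 was 16.9 and 9.02 CPM, a ratio of 1.87 (1.05 to 3.19), and Myd88 24.4 and 15.9 CPM, a ratio of 1.53 (0.963 to 2.36). Cd180 went the other way, 32.8 against 57.2 CPM, a ratio of 0.574 (0.394 to 0.811). Ly86 and Unc93b1 stayed within 1.5-fold, at 1.17 (1.04 to 1.31) and 1.24 (1.11 to 1.38).

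So 3 of 6 measured members were higher and 1 lower, beside 3.46% of 6298 genes higher and 6.65% lower. Among the genes of 50 to 150 UMIs, where Tlr7, Tlr1 and Myd88 lie, 7.28% were higher. IgD-positive cells made 66.5% of the group and 60.2% of the comparison cells. In IgD-positive cells alone the ratios were 2.76 for Tlr7, 1.94 for Tlr1, 1.41 for Myd88 and 0.541 for Cd180. Tlr1 had too few UMIs to be counted there, and Myd88 was under 1.5-fold. With each cell thinned to 1000 UMIs they were 1.99, 1.40, 1.55 and 0.546, with too few UMIs of the first 3 to be measured. With a limit of 2 UMIs the Myd88 ratio was 1.27 and that of Cd180 0.733, both inside 1.5-fold, and Tlr7 gave 2.03 and Tlr1 1.86. With a limit of 5 UMIs, 165 cells, Cd180 was at 0.313, and Tlr7 at 3.15, Tlr1 at 1.99 and Myd88 at 2.01 had too few UMIs to be measured. Myeloid and neutrophil genes summed to 2.81 CPM in the group, where 9 of these 12 genes had no UMI, and to 61.5 CPM in the comparison cells. The median cell had 0 such UMIs on both sides. At day 14 these genes stood at 2.77 CPM in all IgD-positive cells and at 237 CPM in cells with no state. The difference is thus no trait of the group. At day 0 the group had 16 cells, of which 6 with IgM and no IgD. Ly86 was 624 against 273 CPM there (49 UMIs, ratio 2.28, 1.68 to 3.03), where 10.2% of 875 genes were higher and 13% lower. Cd180 was 115 against 62.3 CPM there, a ratio of 1.84 (0.836 to 3.53) from 9 UMIs, too few to be measured. The lower Cd180 of the day 14 group was thus not seen at day 0.

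**Figure D4:**
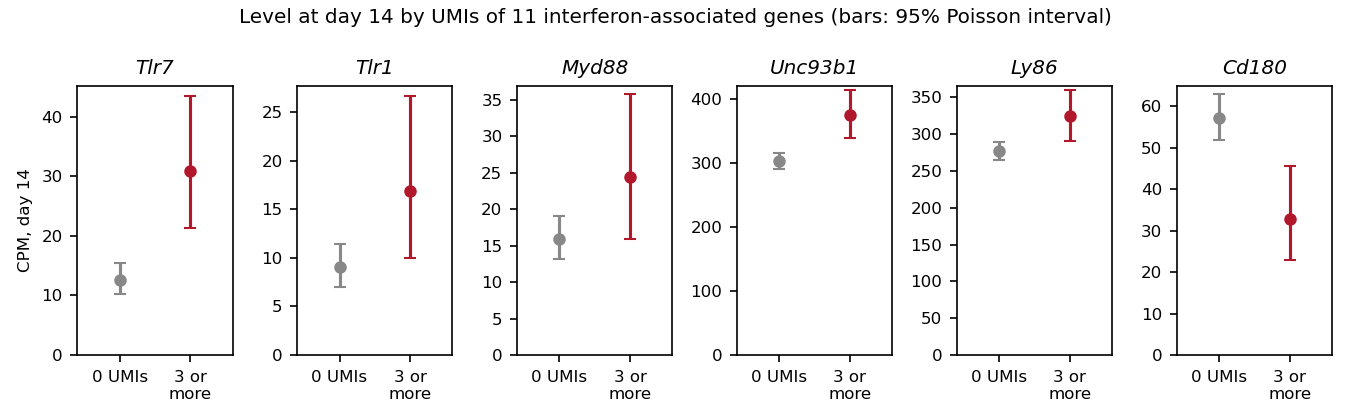
Level at day 14 in CPM, on axes from 0, of 6 members in cells with no UMI of 11 interferon-associated genes (grey, 3265 cells) and in cells with at least 3 (red, 361 cells); bars are 95% Poisson intervals. Tlr7, Tlr1 and Myd88 are higher and Cd180 lower in the second group by more than 1.5-fold, and the bars of Tlr1 and Myd88 overlap between the groups.

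Cells cut the same way on 6 early activation genes (Egr1, Egr2, Egr3, Nr4a1, Myc, Nfkbid) held more Cd180 on both days, 77.9 against 55.0 CPM at day 0 and 73.6 against 50.4 CPM at day 14, ratios of 1.42 (1.10 to 1.82) and 1.46 (1.17 to 1.82) that stayed under 1.5-fold. Tlr7 gave 1.32 (0.693 to 2.43) and 1.55 (1.005 to 2.34) there, where 5.18% and 5.89% of genes were higher and 6.49% and 6.1% lower. Cells cut on 7 proliferation genes, 21 at day 0 and 28 at day 14, held less Unc93b1, 192 against 289 CPM and 215 against 323 CPM, ratios of 0.665 (0.448 to 0.952) and 0.667 (0.492 to 0.883). Both ratios were only just past 1.5-fold, from 30 and 49 UMIs. In these cells 26.7% and 20.3% of genes were lower and 24.6% and 20.4% higher. Cd180 in them gave 0.897 (0.407 to 1.72) and 1.78 (1.10 to 2.72), the second from 22 UMIs, and Ly86 0.598 (0.393 to 0.873) and 1.12 (0.876 to 1.41), so neither passed 1.5-fold on both days. Their median UMIs were 7060 and 7858 against 2268 and 2222.

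Between the days, 1 gene of the rest of the pathway passed 1.5-fold. Of 67 genes in 7 lists, 54 were measured, 0 were higher and 1 was lower, beside 1.31% and 4.94% of all genes. That gene was Tab1, which activates the kinase TAK1, at 39 and 32 UMIs, a ratio of 0.573 (0.347 to 0.938). Among the most counted, Rel, an NF-κB subunit of B cells, was 973 and 928 CPM, a ratio of 0.954 (0.926 to 0.982). The lysosomal protease Ctss was 457 and 538 CPM, a ratio of 1.18 (1.13 to 1.23), and Hsp90b1, the endoplasmic reticulum chaperone that folds Toll-like receptors, 353 and 420 CPM, a ratio of 1.19 (1.14 to 1.25). Median log2 ratios over the lists ran from -0.23 (accessory proteins and chaperones) to 0.03 (negative regulators), beside -0.09 over all genes.

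In cells with IgM and no IgD, IgG cells and IgA cells, 50, 13 and 15 of the pathway genes were measured and 0 passed 1.5-fold on both days in either direction. In the plasma range 24 were measured, 4 higher and 13 lower, beside 15.5% and 33%. Hsp90b1 was 19.9-fold (18.2 to 21.7) higher at day 0 and 28.7-fold (26.9 to 30.6) at day 14, and the cathepsin gene Ctsb 8.74-fold and 6.42-fold. Jun (7.14 and 2.29) and the NF-κB inhibitor gene Nfkbia (8.99 and 2.56) were also higher. Among the lower genes were Rel, at ratios of 0.0741 (0.0414 to 0.122) and 0.0538 (0.0294 to 0.0904), Irf8, a B cell transcription factor, at 0.210 and 0.1996, and Cd22, an inhibitory coreceptor, with 1 and 0 UMIs.

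The genes whose level over 8 profiles (4 isotype states on 2 days) was most like that of a member were sought among 3662 genes with at least 500 UMIs, by Pearson correlation of log2(CPM + 1), a description in which the IgG and IgA profiles rest on few cells. Those nearest to Cd180 were Mgat2 (0.969), Mtpn (0.969) and Btg3 (0.957). Those nearest to Ly86 were Ier5 (0.934), Ift20 (0.883) and Mef2d (0.869), though Ly86 itself spanned only 0.33 on the log2 scale. Those nearest to Unc93b1 were Eif2b2 (0.955), Desi2 (0.954) and Rsrc2 (0.952).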

How the data were processed

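Single-cell 3′ RNA-seq (10x Chromium, version 2 chemistry, per the labels' protocols) gave 1 library per group. The deposited matrices are raw UMI counts, one file per library. Their headers name Cell Ranger 3.0.1, and the submitters' processing notes name mm10 and Seurat 3.0. The authors' deposited log tables are natural log values of counts scaled within each cell, and only their barcodes were used here, as the list of cells. The aligner settings, annotation and filters were not given in the sources used here. Doublets were not called, and an alternative left out cells above 2 times the median UMIs.

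Counts were summed per library and state. A cell was IgA or IgG from 3 such UMIs on, where these were more than 50% of its heavy chain constant UMIs, otherwise IgD-positive at 1 Ighd UMI, otherwise IgM without IgD at 3 Ighm UMIs. State comparisons also asked for 10 expected UMIs in the smaller group. Ratios have exact conditional, levels Poisson and shares Clopper-Pearson 95% intervals. The UMI limits of counts at 0 use 3 counts. T-marker barcodes had at least 3 T cell and at most 1 B cell UMI. A further B cell marker is not reported here and was left out of the B cell list; this changed no T-marker barcode count. Simulated counts were used to check the ratio code. All 9 members are named; of each list, called genes and the most counted one, up to 4. The members and lists were chosen with earlier results of these data known. The ranges for interferon-associated, activation and proliferation genes, the 10-UMI switched values beyond the planned ratio and the shares at 50 to 150 UMIs were set after the files were seen. Tools were Python 3.11.15, NumPy 2.4.6, SciPy 1.17.1, pandas 2.3.3, R 4.3.3 and edgeR 4.0.16 (TMM factors only).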

Additional observations from a re-analysis of the deposited data

Results flagged for a closer look

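Barcodes that the authors left out of the log tables, 86 at day 0 and 88 at day 14, held UMIs of members above the 3 counts that a count of 0 allows. At day 0 these were 4 UMIs of Tlr1, 9 of Myd88 and 9 of Unc93b1. At day 14 they were 10 UMIs of Myd88 and 12 of Unc93b1. Of these barcodes, 56 and 42 had T cell markers, and 1 and 6 had at least 5 B cell marker UMIs.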

How the results depend on the processing

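Of 393 recomputed values of single members, 370 stayed inside the counting interval of the main value and 23 lay outside it. Of the values past 1.5-fold, 0 changed direction. Of those inside it, 4 day 14 ratios to IgD-positive cells crossed 1 and left their interval. Ly86 in IgA cells, at 1.22, was 0.539 with the switched call at 10 UMIs and 0.4998 with plasma range cells kept, and Unc93b1 there, at 1.01, was 0.647 with those cells kept. Ly86 in IgG cells, at 1.05, was 0.700 with the switched call at 10 UMIs and 0.680 with thinning, and Cd180 in cells with IgM and no IgD, at 1.17, was 0.901 with thinning. Of 188 recomputed counts, 145 were within 1.5 times the main count. The counts of members higher or lower by day stayed at 0 under all 14 alternatives. For the 117 higher and 441 lower genes by day, TMM gave 186 and 266, median-of-ratios 182 higher, a minimum of 20 UMIs 224 and 763, a minimum of 200 UMIs 40 and 130, 2-fold 25 and 74, and all barcodes 207 higher. For the 0 higher and 1 lower pathway genes by day, thinning gave 1 higher, a minimum of 200 UMIs and 2-fold 0 lower, leaving out cells above 2 times the median UMIs 3 lower, and leaving out the interferon range 2 lower. For the 1 member lower by isotype state, 2 UMIs of Ighd, 2-fold, thinning and leaving out the interferon range gave 0, and keeping plasma range cells in their state gave 2, Ly86 in IgA cells being the second. For the 0 pathway genes by isotype state, keeping those cells gave 4 higher and 11 lower, the switched call at 10 UMIs 2 lower, 2 UMIs of Ighd 1 lower, median-of-ratios 2 lower and leaving out the deep cells 2 lower. The 2 members higher by day within a state were 1 with the switched call at 10 UMIs, with plasma range cells kept, with the interval asked to clear 1 and without the interferon range, and 0 with 2-fold, with thinning and without the deep cells. The 2 members lower in the plasma range were 1 with median-of-ratios and without the interferon range, and 0 with thinning and without the deep cells, which leave few plasma range UMIs. The 3 members higher in the interferon range were 0 at a limit of 5 UMIs and with thinning, where too few UMIs were left to measure them (ratios 3.15, 1.99 and 2.01, or 1.99, 1.40 and 1.55, for Tlr7, Tlr1 and Myd88), and 1 in IgD-positive cells and with 2-fold; the 1 lower was 0 at a limit of 2 UMIs and with 2-fold. Why these counts moved was not tested. No paired analysis was possible because each group holds 1 library.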
